A study of Mus musculus with 8 samples.

Results

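Blood progenitor and megakaryocyte genes were followed in mouse embryoid bodies of the genotypes PRDM16 KO and PR domain KO. The list held 31 genes, taken by name from the deposited table of normalised fragments and kept where at least 2 of 8 libraries reached a value of 10. Of the 31, 30 had a line in the table and 28 passed, out of 16623 loci that passed the same filter. The 28 were 8 regulators of blood progenitors, 4 progenitor surface or signalling genes and 16 megakaryocyte and platelet genes. Gfi1, a transcriptional repressor of blood progenitors, and Selp, the platelet granule selectin, were below the filter, with second-highest values of 4.14 and 2.06. The lowest member inside it was Myb, with a second-highest value of 14.9, and the next was Gp6, with 47.1. Cbfa2t3 was not analysed here.

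Embryoid bodies are aggregates in which embryonic stem cells form derivatives of the germ layers, blood among them. The 8 libraries were prepared from total RNA on day 9, all on a C57BL/6 background, as 4 groups of 2. The PRDM16 KO group had its own set of WT libraries, and the PR domain KO group, whose titles point to exon 4, had a separate WT set. The labels do not say whether replicates were separate cultures, so p-values may not cover the spread between cultures. The p-values rest on a spread between these libraries that was estimated largely over all loci. Neither do the labels say whether a knockout and its WT set differed in clone, so that the knockout and the line cannot be told apart. Knockouts were therefore read against their own WT set. Between 6273789 and 9086885 fragments per library fell on named loci.

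Blood progenitors in the embryo arise from haemogenic endothelium, and Runx1, Gata2, Lmo2 and Lyl1 are among the factors that direct this step. Megakaryocytes then form from a progenitor shared with the erythroid line and switch on surface receptors, granule proteins and a specialised cytoskeleton, from which platelets are made. PRDM16, a zinc finger protein with an N-terminal PR domain, is known in the mouse for its role in maintaining blood stem cells.

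Prdm16 itself had 11.2 and 1.10 normalised fragments in PRDM16 KO libraries, against 24.4 and 26.3 in their WT set, a log2 fold change of -2.38 ± 0.50, adjusted p = 0.000306 (limma, SE). In PR domain KO libraries it had 23.3 and 15.7, against 44.6 and 22.7 in their WT set, with groups that overlapped. Summed fragments do not show whether exon 4 was lost.

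Most platelet genes were higher in the PR domain KO than in its WT set. Of 16 tested, 11 rose and none fell by limma, and the other 5 also lay above both WT libraries, as 24.7% of all loci did. At an unadjusted p below 0.05, 14 were higher and none lower, and edgeR called 14, limma-voom 14 and DESeq2 10 higher, again with none lower. Among 8 regulators, 2 rose, 1 fell and 5 were not called, and the 4 surface and signalling genes were split, with 2 higher and 2 lower. In all, 15 of 28 members were called higher and 3 lower, while 8.48% of all loci tested were called higher and 10.7% lower. The median log2 fold change was 0.72 over the platelet genes and -0.12 over the regulators, beside -0.03 over all loci. Markers of other cell types shifted as far in the PR domain KO, with medians of 0.97 for erythroid, 0.94 for macrophage and -0.75 for endothelial markers. The regulator median turned to 0.12 without PR domain KO replicate 2 and to 0.21 on FPKM values, where Runx1, Lmo2, Ikzf1, Kit, Vav1, Gp1ba and Rab27b lost their call. Calls are adjusted p below 0.05, by limma with Benjamini-Hochberg adjustment over all loci. These libraries hold RNA of whole embryoid bodies, so that a change in the number of cells of a type and a change in RNA per cell cannot be told apart.

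The PRDM16 KO gave no common direction within the platelet class. Of its 16 genes, 5 rose, 4 fell and 7 were not called. Of the 8 regulators, 3 rose and 3 fell. Over the 28 members, 10 were called higher and 8 lower, against 18.0% and 21.1% of all loci. The lower count fell to 5 when PRDM16 KO replicate 2 was left out, without which Hhex, Clec1b and Nbeal2 were not called, and on FPKM values the counts were 5 higher and 2 lower. The calls lost there were Runx1, Lmo2, Gata2, Hhex, Ikzf1, Cd34, Itga2b, Itgb3, Clec1b, Nbeal2 and Rab27b. The class medians were -0.05 for platelet genes and -0.23 for regulators, beside -0.03 over all loci. The platelet median became 0.080 without WT replicate 1 of the PRDM16 set, and the regulator median 0.16 on FPKM values.

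**Figure D1:**
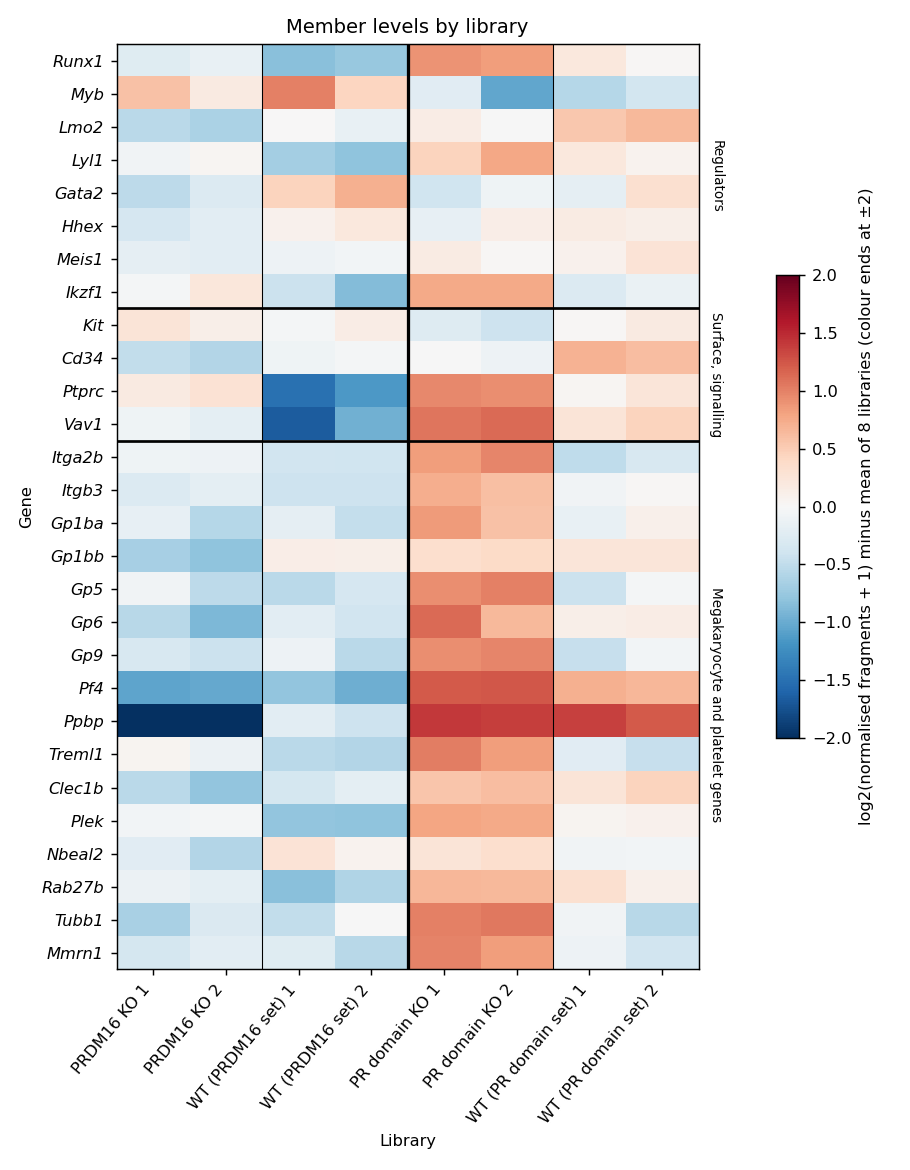
Level of each of the 28 members in each of the 8 libraries, as log2(normalised fragments + 1) minus the gene's mean over the libraries; rows are grouped into regulators, surface and signalling genes, and megakaryocyte and platelet genes, and the scale ends at 2 in both directions. The PR domain KO columns are red for all 16 platelet genes, while Ppbp is deep blue in both PRDM16 KO columns.

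Among the regulators, Runx1 and Ikzf1 rose in both knockouts. Runx1, the runt domain factor needed for blood stem cells to emerge and for megakaryocytes to mature (chromosome 16, 92601466 to 92826149, minus strand of GRCm38), had 189 and 200.2 normalised fragments in PRDM16 KO libraries, against 124 and 132 in the PRDM16 WT set, and 414 and 397 in PR domain KO libraries, against 258 and 227 in the PR domain WT set. The fold changes were 0.60 ± 0.10, adjusted p = 2.94e-05 in the PRDM16 KO and 0.74 ± 0.10, adjusted p = 2.75e-06 in the PR domain KO (log2, SE). Neither pair of groups overlapped, and the PR domain KO libraries were the highest of all. Ikzf1, the lymphoid zinc finger factor Ikaros, had 78.2 and 93.5 normalised fragments in PRDM16 KO libraries, against 59.4 and 43.3 in the PRDM16 WT set, and 135 and 136 in PR domain KO libraries, against 65.9 and 73.3 in the PR domain WT set. Its log2 fold changes were 0.74 ± 0.18, adjusted p = 0.00144 in the PRDM16 KO and 0.96 ± 0.18, adjusted p = 0.000182 in the PR domain KO. The first of these calls was lost without WT replicate 2.

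Lmo2, the LIM-domain adaptor that joins basic helix-loop-helix and GATA factors into one complex (chromosome 2, 103957986 to 103981878, plus strand), fell in both knockouts. Its values were 130.3 and 122 normalised fragments in PRDM16 KO libraries, against 189.8 and 170.2 in the PRDM16 WT set, and 209.9 and 188 in PR domain KO libraries, against 277 and 297 in the PR domain WT set. It fell by 0.51 ± 0.11 (log2, SE, adjusted p = 0.000635) in the PRDM16 KO and by 0.53 ± 0.11 (adjusted p = 0.000869) in the PR domain KO. In each pair both knockout libraries were below both WT libraries. Lyl1, a basic helix-loop-helix partner of Lmo2, had 57.1 and 61.6 normalised fragments in PRDM16 KO libraries, against 37.1 and 33.9 in the PRDM16 WT set, and 81.6 and 103 in PR domain KO libraries, against 69.0 and 63.0 in the PR domain WT set. It rose in the PRDM16 KO, by 0.73 ± 0.20, adjusted p = 0.00411, and missed the threshold in the PR domain KO, at 0.47 ± 0.20, adjusted p = 0.103, although both knockout libraries were above both WT libraries there. The edgeR and limma-voom tests on recovered fragments called it there. Lmo2 and Lyl1 overlap 4931422A03Rik and Nfix on the opposite strand. No source used here gives the strand setting of the counting, and fragments of such partners cannot be told apart.

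Gata2, a zinc finger factor of stem and progenitor cells, had 36.0 and 42.9 normalised fragments in PRDM16 KO libraries, against 71.0 and 85.6 in their WT set. It fell there by 0.97 ± 0.22 (log2, SE, adjusted p = 0.000844). In PR domain KO libraries it had 39.5 and 48.8, against 45.6 and 65.0 in their WT set, and these groups overlapped. Hhex, a homeobox factor of early blood and endothelial precursors, had 70.7 and 77.0 in PRDM16 KO libraries, against 95.4 and 103 in their WT set. It fell by 0.42 ± 0.16 there (adjusted p = 0.0401), and the groups did not overlap. In the PR domain KO Hhex had 79.8 and 98.4, against 100.4 and 97.0 in the WT set, and was not called. Hhex lost its call under TMM or DESeq2 scaling and when either library of the PRDM16 KO or its WT set was left out.

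Meis1, a homeobox factor needed for megakaryocytes to form, was called in neither knockout. It had 357 and 349.9 normalised fragments in PRDM16 KO libraries, against 379.6 and 393 in the PRDM16 WT set, and 457 and 411 in PR domain KO libraries, against 431 and 491 in the PR domain WT set. Its log2 fold changes were -0.13 ± 0.08 in the PRDM16 KO and -0.087 ± 0.08 in the PR domain KO, and its locus also carries the name Gm37818. Myb, needed by progenitors of the definitive blood lines, was near the detection limit, with 22 fragments over the PRDM16 KO libraries, 33 over their WT set, 14 over the PR domain KO libraries and 13 over theirs. As a share of the WT level that was 78.0% (exact 95% interval 43.3 to 138%) in the PRDM16 KO and 90.6% (39.5 to 209%) in the PR domain KO, and both pairs overlapped. The intervals cover counting error only. Gfi1 had 6 fragments over the PRDM16 KO libraries, 4 over their WT set, and 9 over each group of the PR domain set, too few for a comparison.

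**Figure D2:**
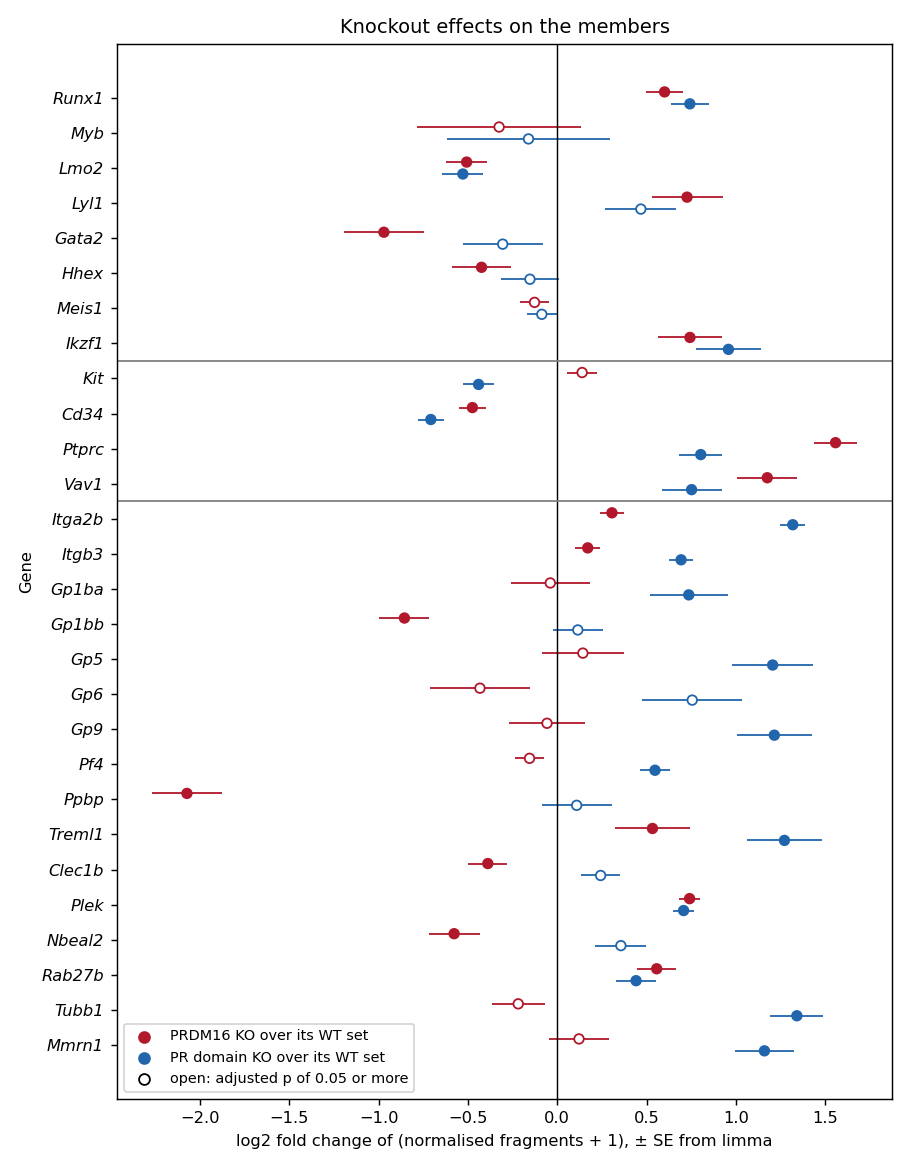
Log2 fold change of each member in the PRDM16 KO (red) and the PR domain KO (blue) over its own WT set, with the limma SE as bars; filled points have an adjusted p below 0.05. In the lowest block, the platelet genes, all 16 blue points lie right of 0, and the red points run between -2.07 for Ppbp and 0.74 for Plek.

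Of the progenitor surface and signalling genes, Cd34 fell and Ptprc and Vav1 rose in both knockouts. Cd34 is a sialomucin of blood progenitors and endothelium (chromosome 1, 194938819 to 194961279, plus strand). It had 347 and 328 normalised fragments in PRDM16 KO libraries, against 463 and 476 in the PRDM16 WT set, and 489.8 and 459.9 in PR domain KO libraries, against 797 and 755 in the PR domain WT set. Neither pair of groups overlapped, yet the PR domain KO libraries lay at the level of the PRDM16 WT set. The log2 fold changes were -0.48 ± 0.07, adjusted p = 5.07e-06 in the PRDM16 KO and -0.71, adjusted p = 1.15e-08, in the PR domain KO. An antisense transcript, Gm16897, overlaps Cd34.

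Ptprc, the CD45 phosphatase of nucleated blood cells (chromosome 1, 138062861 to 138175708, minus strand), had 216 and 231 normalised fragments in PRDM16 KO libraries, against 66.8 and 84.6 in the PRDM16 WT set, and 371 and 361 in PR domain KO libraries, against 195 and 225 in the PR domain WT set. It rose by 1.56 ± 0.12, adjusted p = 1.13e-11 in the PRDM16 KO and by 0.80 ± 0.12, adjusted p = 7.49e-06 in the PR domain KO (log2, SE). The PRDM16 KO libraries reached the level of the other WT set, and the PR domain KO libraries stood above all others. Vav1, a guanine nucleotide exchange factor of blood cells, had 110.4 and 101 normalised fragments in PRDM16 KO libraries, against 36.0 and 59.3 in the PRDM16 WT set, and 246 and 258 in PR domain KO libraries, against 139.9 and 159 in the PR domain WT set. Its log2 fold changes were 1.18 ± 0.17, adjusted p = 1.49e-06 in the PRDM16 KO and 0.75 ± 0.17, adjusted p = 0.00129 in the PR domain KO, and neither pair of groups overlapped.

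Kit, the stem cell factor receptor, had 519.9 and 475 normalised fragments in PRDM16 KO libraries, against 423 and 482 in their WT set, groups that overlapped. In the PR domain KO it had 363 and 327, against 442 and 495 in the WT set, and fell by 0.44 ± 0.09 (log2, SE, adjusted p = 0.000246). Both PR domain KO libraries were lower than the other 6. The mast cell markers, another setting of Kit expression, summed to at most 2.69 normalised fragments in any library, with 4 to 6 of the 6 markers at 0.

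Among the platelet receptors, the integrin pair rose in both knockouts, and by more in the PR domain KO. Itga2b encodes the alpha chain (CD41) of the fibrinogen receptor (chromosome 11, 102453297 to 102470122, minus strand). It had 651 and 645 normalised fragments in PRDM16 KO libraries, against 528 and 520.1 in the PRDM16 WT set, and 1230.0 and 1351 in PR domain KO libraries, against 483 and 552 in the PR domain WT set. Its log2 fold changes were 0.31 ± 0.07, adjusted p = 0.000714 in the PRDM16 KO and 1.32, adjusted p = 3.37e-15, in the PR domain KO. The first changed sign on FPKM values, at -0.058. Itgb3, the beta chain, had 515 and 544 normalised fragments in PRDM16 KO libraries, against 469.7 and 470.3 in the PRDM16 WT set, and 1037 and 950.4 in PR domain KO libraries, against 594 and 634 in the PR domain WT set. It rose by 0.69 ± 0.07, adjusted p = 4.27e-09 in the PR domain KO, while the call in the PRDM16 KO, 0.17 ± 0.07, adjusted p = 0.0484, was lost in several of the alternatives. No pair of groups overlapped for either chain. The fragments of Itga2b over those of Itgb3 came to 1.27 and 1.19 within PRDM16 KO libraries, against 1.12 and 1.11 in their WT set. In the PR domain KO this ratio was 1.19 and 1.42, against 0.812 and 0.871 in its WT set.

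The receptor for von Willebrand factor is built from the products of Gp1ba, Gp1bb, Gp5 and Gp9. Gp1ba carries the binding site and is listed at 2 loci, of which the one with the higher mean had 47.1 and 35.2 normalised fragments in PRDM16 KO libraries, against 46.6 and 37.6 in the PRDM16 WT set, and 96.0 and 79.4 in PR domain KO libraries, against 47.7 and 56.8 in the PR domain WT set. It rose in the PR domain KO, by 0.74 ± 0.22, adjusted p = 0.0158 (log2, SE), a call lost without PR domain KO replicate 1 or its WT replicate 1. The other locus gave 1.10, adjusted p = 0.000766. In the PRDM16 KO neither locus was called. Gp9 (chromosome 6, 87778072 to 87779768, plus strand) had 45.9 and 42.9 normalised fragments in PRDM16 KO libraries, against 54.1 and 39.5 in the PRDM16 WT set, and 111 and 115 in PR domain KO libraries, against 41.6 and 55.7 in the PR domain WT set. It rose by 1.21 ± 0.21, adjusted p = 6.01e-05 in the PR domain KO and stood at -0.058 ± 0.21, adjusted p = 0.855 in the PRDM16 KO, where the groups overlapped.

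Gp5 had 45.9 and 33.0 normalised fragments in PRDM16 KO libraries, against 32.9 and 37.6 in the PRDM16 WT set, and 92.4 and 97.6 in PR domain KO libraries, against 35.5 and 46.4 in the PR domain WT set. Its log2 fold change was 1.21 ± 0.23, adjusted p = 0.000195 in the PR domain KO and 0.14 ± 0.23, adjusted p = 0.659 in the PRDM16 KO, where the groups overlapped. Gp1bb had 73.2 and 66.0 normalised fragments in PRDM16 KO libraries, against 127 and 126 in the PRDM16 WT set, and 147 and 152 in PR domain KO libraries, against 138 and 138 in the PR domain WT set. It fell by 0.86 ± 0.14 (log2, SE, adjusted p = 1.15e-05) in the PRDM16 KO and was not called in the PR domain KO, at 0.11 ± 0.14, adjusted p = 0.646. The locus of Gp1bb is joined in the table with Sept5, a septin gene on the same strand, so that its value belongs to no single gene. The other 3 chains of the complex were all called higher in the PR domain KO.

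Gp6, the collagen receptor, had 19.9 and 15.4 normalised fragments in PRDM16 KO libraries, against 25.4 and 22.6 in the PRDM16 WT set, and 66.4 and 47.1 in PR domain KO libraries, against 32.5 and 33.0 in the PR domain WT set. Its counts were 131 fragments over the PR domain KO libraries and 64 over their WT set, or 172% of the WT level (exact 95% interval 127 to 236%), and limma gave 0.76 ± 0.28, adjusted p = 0.0553. Gp6 therefore missed the threshold narrowly, and the 4 other scalings, edgeR and limma-voom called it. In the PRDM16 KO it stood at 73.1% of the WT level (44.7 to 118%) and was not called, although both libraries were below both WT libraries. Clec1b, a C-type lectin receptor that binds podoplanin, had 160.0 and 135 normalised fragments in PRDM16 KO libraries, against 183 and 203 in the PRDM16 WT set, and 344 and 358 in PR domain KO libraries, against 278 and 317 in the PR domain WT set. It fell in the PRDM16 KO, by 0.39 ± 0.11 (log2, SE, adjusted p = 0.00468), a call lost without PRDM16 KO replicate 2 or WT replicate 2, and was not called in the PR domain KO (0.24 ± 0.11, adjusted p = 0.123). Its locus is joined with Clec9a.

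**Figure D3:**
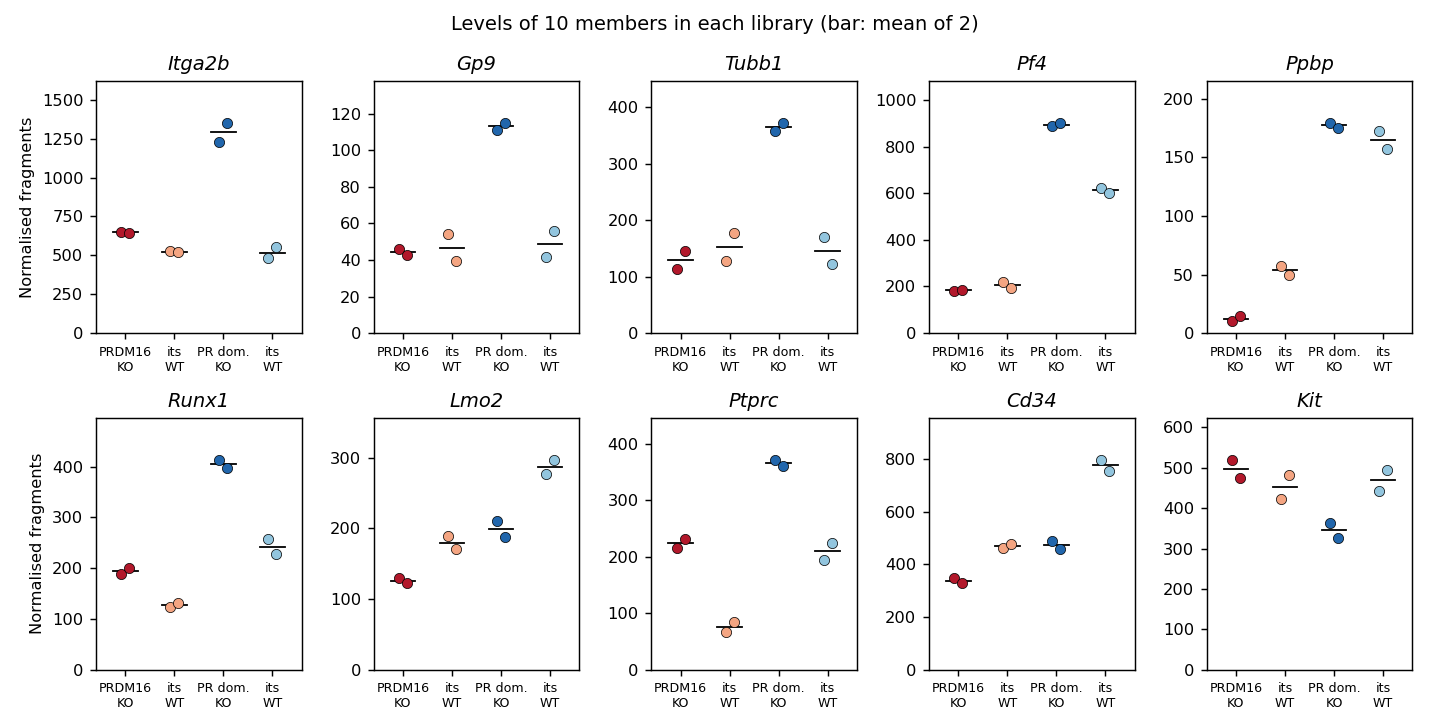
Normalised fragments of 10 members in each library, with the mean of the 2 libraries of a group as a bar, each panel on its own linear axis that starts at 0. Itga2b, Gp9 and Tubb1 are higher in the PR domain KO than in the 6 other libraries, Pf4 and Ppbp also differ between the WT sets, and Cd34 and Lmo2 are lower in each knockout than in its own WT set.

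The granule chemokines Pf4 and Ppbp are neighbours on chromosome 5 and on the same strand, Ppbp at 90768518 to 90770063 and Pf4 at 90772435 to 90773383, 2371 bases apart. They diverged in the PRDM16 KO. Pf4, platelet factor 4, had 182 and 186 normalised fragments in PRDM16 KO libraries, against 219 and 192 in the PRDM16 WT set, and 888 and 902 in PR domain KO libraries, against 622 and 603 in the PR domain WT set. Ppbp, the precursor of platelet basic protein, had 9.93 and 14.3 normalised fragments in PRDM16 KO libraries, against 57.3 and 49.8 in the PRDM16 WT set, and 179 and 175 in PR domain KO libraries, against 172 and 157 in the PR domain WT set. Ppbp fell by 2.07 ± 0.20 (log2, SE, adjusted p = 6.56e-10) in the PRDM16 KO, the largest change among the 28 members, and stood there on 21 fragments, against 107 in the WT set, or 23.0% of the WT level (exact 95% interval 13.7 to 36.9%). Pf4 was not called in that comparison, at -0.16 ± 0.08, adjusted p = 0.143, with groups that did not overlap. The call came up without WT replicate 2.

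In the PR domain KO the calls were the other way round. Pf4 rose by 0.55 ± 0.08, adjusted p = 8.49e-06, while Ppbp stood at 108% of the WT level (92.8 to 125%) and was not called. Within a library, fragments of Pf4 over those of Ppbp came to 18.4 and 13 in the PRDM16 KO, against 3.83 and 3.85 in its WT set, and to 4.95 and 5.14 in the PR domain KO, against 3.61 and 3.84 in its WT set. Neither pair of groups overlapped. Per length, Pf4 was the highest member in every group, at 111 and 113 FPKM in the PRDM16 KO, against 136 and 125 in its WT set, and 520.1 and 544 FPKM in the PR domain KO, against 354 and 369 in its WT set. The joined locus of Clec1b was second in every group.

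Of the other granule and vesicle genes, Plek and Rab27b rose in both knockouts. Plek, encoding pleckstrin, a substrate of protein kinase C in platelets, had 794 and 802 normalised fragments in PRDM16 KO libraries, against 481 and 473 in the PRDM16 WT set, and 1434 and 1406 in PR domain KO libraries, against 857 and 882 in the PR domain WT set. It rose by nearly the same amount in both, 0.74 ± 0.06, adjusted p = 1.65e-11 in the PRDM16 KO and 0.71 ± 0.06, adjusted p = 1.07e-10 in the PR domain KO. Cnrip1 overlaps Plek on the opposite strand. Rab27b, a GTPase of dense granule release, had 202 and 191 normalised fragments in PRDM16 KO libraries, against 123 and 145 in the PRDM16 WT set, and 346 and 345 in PR domain KO libraries, against 275 and 235 in the PR domain WT set. It rose by 0.56 ± 0.11, adjusted p = 0.000152 in the PRDM16 KO and by 0.44 ± 0.11, adjusted p = 0.00377 in the PR domain KO. The second of these calls was lost without WT replicate 2 of the PR domain set. Treml1, an alpha granule receptor, had 53.3 and 47.3 normalised fragments in PRDM16 KO libraries, against 35.0 and 33.9 in the PRDM16 WT set, and 105 and 92.6 in PR domain KO libraries, against 43.6 and 37.2 in the PR domain WT set. It rose by 1.27 ± 0.21, adjusted p = 3.2e-05 in the PR domain KO, and its call in the PRDM16 KO, 0.53 ± 0.21, adjusted p = 0.0456, was lost in several of the alternatives.

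Nbeal2, needed for alpha granules to form, had 110.4 and 85.8 normalised fragments in PRDM16 KO libraries, against 157 and 135 in the PRDM16 WT set, and 154 and 165 in PR domain KO libraries, against 124 and 125 in the PR domain WT set. It fell by 0.58 ± 0.14 (log2, SE, adjusted p = 0.00165) in the PRDM16 KO and was not called in the PR domain KO, at 0.36 ± 0.14, adjusted p = 0.0816. The fall was not called without PRDM16 KO replicate 2 and had the opposite sign on FPKM values, at 0.26, and the locus also carries Mir8107. Mmrn1, encoding multimerin, a carrier of factor V in granules, had 72.0 and 79.2 normalised fragments in PRDM16 KO libraries, against 77.4 and 62.1 in the PRDM16 WT set, and 184 and 165 in PR domain KO libraries, against 85.2 and 70.2 in the PR domain WT set. It rose by 1.16 ± 0.17, adjusted p = 3.77e-06 in the PR domain KO, and the PRDM16 KO gave 0.12 ± 0.17, adjusted p = 0.602, with groups that overlapped. Selp had 1 fragment over each group of the PRDM16 set, 3 over the PR domain KO libraries and 4 over their WT set, which allows no comparison.

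Tubb1, the beta tubulin of the platelet marginal band (chromosome 2, 174450695 to 174457882, plus strand), rose in the PR domain KO. It had 114 and 145 normalised fragments in PRDM16 KO libraries, against 127 and 177 in the PRDM16 WT set, and 359 and 372 in PR domain KO libraries, against 169 and 122 in the PR domain WT set. The log2 fold change was 1.34 ± 0.15, adjusted p = 3.95e-08 in the PR domain KO and -0.22 ± 0.15, adjusted p = 0.257 in the PRDM16 KO, where the groups overlapped and a fall was called only without WT replicate 1. Both PR domain KO libraries were above the other 6.

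All 16 platelet genes had both PR domain KO libraries above both WT libraries of their set. Over all loci, 24.7% had both above and 31.9% both below. Of the 16, 15 also lay above all 4 WT libraries, Nbeal2 being the exception, beside 15.7% of all loci. Regulators had 3 of 8 higher, 1 lower and 4 with overlap in the PR domain KO, beside the same 24.7% and 31.9% of all loci. In the PRDM16 KO, 5 platelet genes lay above, 6 below and 5 across the range of their WT set, beside 31.3% and 36.5% of all loci above and below. There 11 of 28 members were below all 4 WT libraries, beside 23.4% of all loci. Another 3 were above all 4, a count that cannot be judged, since no share of all loci is given for that side.

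Among 5 platelet genes, for an integrin chain, a receptor chain, a tubulin and both chemokines, all but Ppbp were called higher in the PR domain KO. Their promoter windows are shown. Each is 300 bases, 250 before to 50 after the start, 5′ to 3′ on the gene's strand, from RefSeq for GRCm38.p6. Capitals mark matches, on either strand, to AGATAA, a form of the GATA motif, to TGTGGT, a form of the RUNX motif, and to AGGAAG, a form of the ETS motif, so that a match on the other strand reads TTATCT for the first, ACCACA for the second and CTTCCT for the last. The windows are chr11:102469834-102470133 on the minus strand for Itga2b, chr6:87777820-87778119 on the plus strand for Gp9, chr2:174450345-174450644 on the plus strand for Tubb1, chr5:90772185-90772484 on the plus strand for Pf4 and chr5:90768268-90768567 on the plus strand for Ppbp.
Itga2b: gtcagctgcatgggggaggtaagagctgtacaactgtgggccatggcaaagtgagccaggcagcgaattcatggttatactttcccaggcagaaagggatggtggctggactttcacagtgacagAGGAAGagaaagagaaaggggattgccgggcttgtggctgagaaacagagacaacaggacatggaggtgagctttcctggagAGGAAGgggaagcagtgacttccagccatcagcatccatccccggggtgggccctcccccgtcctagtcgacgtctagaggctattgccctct
Gp9: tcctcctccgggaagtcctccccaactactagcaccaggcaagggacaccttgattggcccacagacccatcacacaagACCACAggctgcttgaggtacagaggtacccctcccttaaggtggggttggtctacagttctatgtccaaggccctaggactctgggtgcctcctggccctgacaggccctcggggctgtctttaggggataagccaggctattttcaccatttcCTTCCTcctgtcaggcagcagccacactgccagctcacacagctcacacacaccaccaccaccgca
Tubb1: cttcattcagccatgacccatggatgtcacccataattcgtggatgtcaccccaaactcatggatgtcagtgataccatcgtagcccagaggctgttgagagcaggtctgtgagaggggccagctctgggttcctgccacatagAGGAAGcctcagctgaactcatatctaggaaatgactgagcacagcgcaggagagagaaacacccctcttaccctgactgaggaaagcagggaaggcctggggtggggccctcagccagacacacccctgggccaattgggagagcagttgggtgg
Pf4: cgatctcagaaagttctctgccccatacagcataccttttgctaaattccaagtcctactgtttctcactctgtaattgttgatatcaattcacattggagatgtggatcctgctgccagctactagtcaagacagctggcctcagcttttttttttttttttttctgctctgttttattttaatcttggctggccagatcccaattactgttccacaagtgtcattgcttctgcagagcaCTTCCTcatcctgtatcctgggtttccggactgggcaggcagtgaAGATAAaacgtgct
Ppbp: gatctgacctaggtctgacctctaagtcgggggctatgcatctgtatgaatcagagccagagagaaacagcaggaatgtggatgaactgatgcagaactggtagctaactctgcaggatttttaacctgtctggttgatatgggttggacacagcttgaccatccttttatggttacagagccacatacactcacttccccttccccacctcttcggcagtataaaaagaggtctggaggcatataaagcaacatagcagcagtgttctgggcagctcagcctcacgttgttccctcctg

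Itga2b held 2 AGGAAG matches, Tubb1 1, and Gp9 one CTTCCT with an ACCACA. Pf4 held a CTTCCT and an AGATAA, whereas its neighbour Ppbp held none of the 3 motifs. Over the 14 platelet genes with a window, of 25 members that had one, AGATAA was found in 4 (28.6%, beside 11.2% of 32851 RefSeq windows). AGGAAG was found in 8 of these 14 windows (57.1%, beside 35.4%) and TGTGGT in 1 (7.14%, beside 16.8%). The 7 regulators had 10 windows, of which none held AGATAA, 2 held TGTGGT and 3 held AGGAAG. The 6 windows of the 4 surface and signalling genes all held AGGAAG, with AGATAA in 1 and TGTGGT in none. Of the platelet windows with AGATAA, that of Clec1b and that of Gp6 belong to genes that limma did not call in the PR domain KO. Those of Gp5 and Pf4 belong to genes that rose. A match is a run of letters, and binding was not measured.

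The knockout effects were also tested against each other. In the test of the PR domain KO effect minus the PRDM16 KO effect, 12 of 16 platelet genes were called higher and none lower, and none of the 8 regulators was called by limma. At an unadjusted p below 0.05, 14 platelet genes and 1 regulator were higher and none of either lower, and edgeR, limma-voom and DESeq2 called 12, 11 and 10 platelet genes higher and no regulator. At the surface, Kit and Ptprc were lower, with differences of -0.58 ± 0.12, adjusted p = 0.000892 and -0.75 ± 0.17, adjusted p = 0.00221 (log2, SE). Over all loci 7.81% were called higher and 8.60% lower. The median difference was 0.95 for platelet genes, 0.15 for regulators and 0.00 over all loci. This test uses the same 8 libraries as the comparisons above and is no second set of evidence.

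The widest differences were for Ppbp, at 2.18 ± 0.28, adjusted p = 9.07e-07, and Tubb1, at 1.56 ± 0.21, adjusted p = 2.48e-06 (log2, SE). Gp9 followed at 1.27 ± 0.30, adjusted p = 0.00303, then Gp6 at 1.19 ± 0.39, adjusted p = 0.036, Gp5 at 1.06 ± 0.32, adjusted p = 0.022, Mmrn1 at 1.04 ± 0.24, adjusted p = 0.00229 and Itga2b at 1.01. The differences of Gp5 and Gp6 lost their call when 1 of several libraries was left out. The effects on Plek and Rab27b did not pass the test, at -0.034 ± 0.08, adjusted p = 0.835 and -0.12 ± 0.16, adjusted p = 0.679. Those on Runx1 and Lmo2 did not either, at 0.14 ± 0.15, adjusted p = 0.578 and -0.021 ± 0.16, adjusted p = 0.951. On FPKM values only 2 members were called higher and none lower.

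Many members also differed between the WT sets. With the WT libraries of the PR domain set over those of the PRDM16 set, 13 of 28 members were higher and 1 was lower, beside 16.3% and 16.7% of all loci. The higher ones were 4 regulators, 3 surface and signalling genes and 6 platelet genes, and the lower one, Myb, lost its call when any of the 4 WT libraries was left out. The largest of them were Vav1 at 1.67 ± 0.17, adjusted p = 2.5e-09, Ppbp at 1.60 ± 0.20, adjusted p = 1.04e-07, Pf4 at 1.57 ± 0.08, adjusted p = 8.46e-16 and Ptprc at 1.46 ± 0.12, adjusted p = 3.35e-11 (log2, SE). Runx1 stood at 0.91 ± 0.10, adjusted p = 3.29e-08. Itga2b, at -0.021 ± 0.07, adjusted p = 0.854, Tubb1, at -0.062 ± 0.15, adjusted p = 0.795, and Gp9, at 0.058 ± 0.21, adjusted p = 0.874, were not called. Marker lists of other cell types differed between the WT sets too. All 7 endoderm markers were lower in the PR domain WT set than in the PRDM16 WT set, with a median log2 fold change of -2.01, all 12 macrophage markers were higher there, with a median of 1.58, and of 11 endothelial markers 9 were higher and 1 was lower. Their part in the difference of the members was not tested. These WT libraries are the same ones that serve as controls above.

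Summed over each class, the platelet genes came to 3097 and 3069 normalised fragments in PRDM16 KO libraries, against 2746 and 2725 in the WT set, and 6775 and 6775 in PR domain KO libraries, against 3999.7 and 4066 in the WT set. The 3 most abundant, Plek, Itgb3 and either Itga2b or Pf4, made up 51.8 to 64.9% of that sum. Plek alone had 794 and 802 in PRDM16 KO libraries, against 481 and 473 in their WT set. In that KO 5 platelet genes were called higher and 4 lower, with a median log2 fold change of -0.05. The higher platelet sum there was therefore no rise across the class. The regulators summed to 937 and 962 in the PRDM16 KO, against 979.6 and 975 in the WT set, and to 1428 and 1390.4 in the PR domain KO, against 1258 and 1325 in the WT set. Platelet over regulator sums within a library were 3.31 and 3.19 in the PRDM16 KO, against 2.80 and 2.79 in the WT set. In the PR domain KO they were 4.74 and 4.87, against 3.18 and 3.07 in the WT set, with no overlap in either pair.

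Blood regulators outside the list moved in both directions. Of 11 tested, 1 rose and 4 fell in the PRDM16 KO, and 5 rose and 3 fell in the PR domain KO. Gata1, the factor of erythroid cells and megakaryocytes, had 48.4 and 60.5 normalised fragments in PRDM16 KO libraries, against 35.0 and 40.4 in the PRDM16 WT set, and 100.5 and 86.8 in PR domain KO libraries, against 43.6 and 43.3 in the PR domain WT set. It rose in the PR domain KO, by 1.09 ± 0.21, adjusted p = 0.000245, and stood at 0.51 ± 0.21, adjusted p = 0.0525 in the PRDM16 KO (log2, SE). Tal1, the basic helix-loop-helix relative of Lyl1, had 102 and 105 normalised fragments in PRDM16 KO libraries, against 115 and 119 in the PRDM16 WT set, and 205 and 194 in PR domain KO libraries, against 135 and 116 in the PR domain WT set. Its fold change was 0.67 ± 0.13, adjusted p = 0.000387 in the PR domain KO and -0.18 ± 0.13, adjusted p = 0.304 in the PRDM16 KO. Cbfb, the partner subunit of Runx1, fell in both, by 0.39 ± 0.06 in the PRDM16 KO (adjusted p = 1.18e-06) and by 0.36 ± 0.06 in the PR domain KO (adjusted p = 9.08e-06). Erg, an ETS factor of endothelium and stem cells, also fell in both, by 1.01 ± 0.19 in the PRDM16 KO (adjusted p = 8.3e-05) and by 1.23 ± 0.19 in the PR domain KO (adjusted p = 1.27e-05). Spi1, the myeloid ETS factor, rose in both, by 0.77 ± 0.13 in the PRDM16 KO (adjusted p = 1.92e-05) and by 0.63 ± 0.13 in the PR domain KO (adjusted p = 0.000529). Mecom, the closest relative of Prdm16, fell by 0.83 ± 0.09 in the PR domain KO and stood at -0.19 ± 0.09, adjusted p = 0.0921 in the PRDM16 KO. In the PRDM16 KO, Etv6, an ETS repressor, fell by 0.50 ± 0.08 and Ldb1, the binding partner of Lmo2, by 0.28 ± 0.05, while in the PR domain KO they stood at 0.068 ± 0.08, adjusted p = 0.63 and at -0.073 ± 0.05, adjusted p = 0.324 (log2, SE).

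Of 22 other megakaryocyte genes, all tested, 16 rose and 6 were not called in the PR domain KO, with a median log2 fold change of 0.70. In the PRDM16 KO, 9 rose and 3 fell, with a median of 0.14. The smallest adjusted p-values in the PR domain KO were those of Thbs1, the granule matrix protein thrombospondin (0.38 ± 0.04), Fermt3, an integrin activator of blood cells (0.65 ± 0.08), Cd9, a tetraspanin (0.54 ± 0.07), and Tbxas1, thromboxane synthase (1.34 ± 0.19). In the PRDM16 KO they were those of F13a1, the clotting factor XIII subunit (1.58 ± 0.06), Ptgs1, cyclooxygenase (1.00 ± 0.13), and Cd84, an adhesion receptor of blood cells (1.29 ± 0.18). Several of these, F13a1, Tbxas1 and Cd84 among them, are also known from macrophages.

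Most erythroid and macrophage markers rose in both knockouts, also in the PRDM16 KO, where the members had no common direction. Of 13 erythroid markers, 8 rose and 1 fell in the PRDM16 KO, and 10 rose in the PR domain KO. Their summed level was 10888 and 10828 normalised fragments in PRDM16 KO libraries, against 7804 and 7648 in the WT set, and 21154 and 20908 in PR domain KO libraries, against 11045 and 10479 in the WT set. Of 12 macrophage markers, 11 rose in the PRDM16 KO and all 12 in the PR domain KO, with sums of 4417 and 4598 in PRDM16 KO libraries, against 2030.3 and 2121 in the WT set, and of 11974 and 11930.5 in PR domain KO libraries, against 6325 and 6188 in the WT set. Ptprc, Vav1, Ikzf1 and Plek are expressed in macrophages too.

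Endothelial markers went the other way. Of 11, 2 rose and 6 fell in the PRDM16 KO, and all 11 fell in the PR domain KO, with sums of 6265 and 6452 in PRDM16 KO libraries, against 6721 and 6681 in the WT set, and of 6115 and 6012 in PR domain KO libraries, against 8430.5 and 8668 in the WT set. Cd34, Lmo2, Gata2, Hhex and Erg are expressed in endothelium too. In the PR domain KO, Gata2 stood at -0.31 ± 0.22 and Hhex at -0.15 ± 0.16 (log2, SE), and neither was called. No marker of these 3 lists that had a line was at 0 in any library. Neutrophil markers summed to 15.9 to 37.2 normalised fragments with 3 to 6 of 8 at 0, and 12.7 to 24.8 of these were Prtn3. Of 7 lymphoid markers, 4 or 5 were at 0, and Rag1, at a locus joined with B230118H07Rik, had 165 to 242 normalised fragments, while the other 6 reached at most 7.44. Mast cell markers reached at most 1.79. Endoderm markers rose in most cases, 5 of 7 in the PRDM16 KO, where Foxa2 and Sox17 were not called, and 6 of 7 in the PR domain KO, where Sox17 fell. Their sums were 71337 and 71931 normalised fragments in PRDM16 KO libraries, against 34070.4 and 35558 in the WT set, and 9823 and 9757 in PR domain KO libraries, against 5351 and 5605 in the WT set. The part of these other cell types in the results for the members was not tested. Platelet over erythroid sums were 0.284 and 0.283 in the PRDM16 KO, against 0.352 and 0.356 in the WT set, and 0.320 and 0.324 in the PR domain KO, against 0.362 and 0.388 in the WT set. Platelet over macrophage sums were 0.701 and 0.667 in the PRDM16 KO, against 1.35 and 1.28 in the WT set, and 0.566 and 0.568 in the PR domain KO, against 0.632 and 0.657 in the WT set. Both ratios were lower in each knockout than in its WT set.

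**Figure D4:**
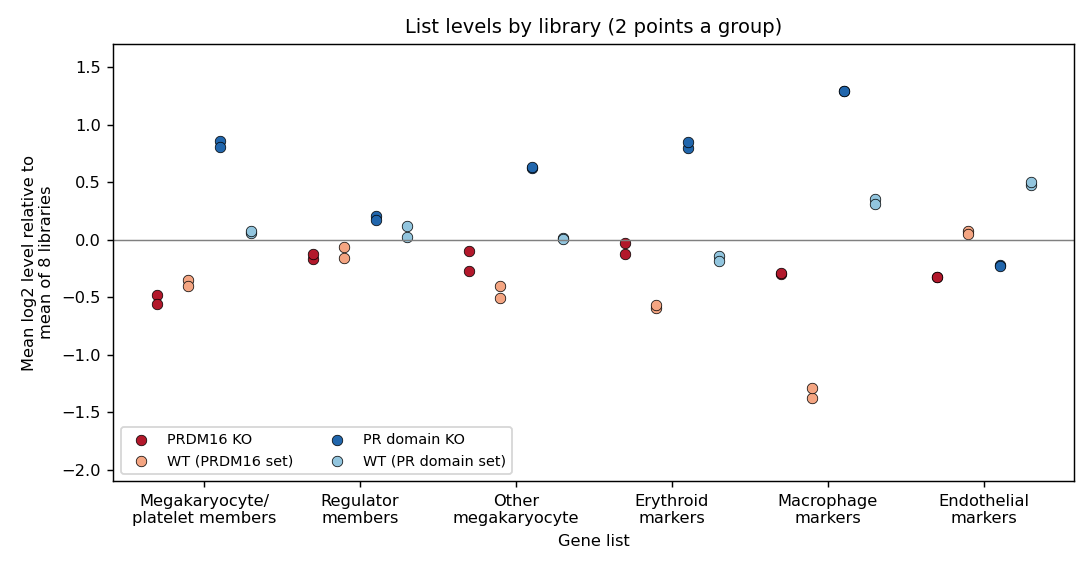
Mean over a list's tested genes of the log2 level relative to each gene's mean over the 8 libraries, for 2 libraries a group. The platelet members, the other megakaryocyte genes and the erythroid and macrophage markers are highest in the PR domain KO, while the endothelial markers are lower in each knockout than in its WT set.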

How the data were processed

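RNA was extracted with Trizol and RNeasy columns and made into Illumina TruSeq libraries, per the labels' protocols. Tools named in the submitters' processing notes were Cufflinks 2.2.1, TopHat2 2.1.1, deepTools and SAMtools 1.5, with the mm10 build. No source used here gives the annotation or the strand setting. The authors deposited signal values, which are the fragments of a locus over a size factor of its library, as headers and values show. Within a library 99.99 to 100% of values were whole multiples of 1 step (0.827 to 1.24) within a tolerance of 0.1, which gave back the fragments. The authors also deposited FPKM values, used for levels per length and as an alternative. Lines without a gene name (787 loci, 1.88 to 2.53% of fragments) were left out, which left 52281 named loci, of which 1390 carry 2 or more names.

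Groups and replicate numbers came from the titles. Limma-trend 3.58.1 (R 4.3.3) was fitted on log2(value + 1) to the 16623 loci where 2 or more libraries reached 10, as 4 group means over 8 libraries, with 4 residual and 25.4 prior degrees of freedom. Fold changes on this scale understate low genes. Benjamini-Hochberg adjustment ran over all loci, with a call below 0.05. Replicates differed by more than sampling noise (chi-square per degree of freedom of 1.39 to 2.17). Exact intervals are at 95%, cover counting error only and treat fragments as independent molecules. Alternatives were other scalings, pseudocounts and filters, FPKM, edgeR 4.0.16, DESeq2 1.42.0, voom, a replicate block, the 2 groups alone and leaving out each library. The fit was also tried on simulated data, the outcome of which is not given here.

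The members, lists and tests were chosen with earlier results of these data known. Named genes were all members, Prdm16, Mecom, Tal1, Gata1 and, in each list of other regulators and other megakaryocyte genes, up to 4 called genes with the smallest adjusted p per knockout. A gene that this rule names is not reported here. Coordinates are from GENCODE (GRCm38).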

Additional observations from a re-analysis of the deposited data

Results flagged for a closer look

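For 14 members the effects of the knockouts differed by the limma test of the difference itself, the PR domain KO effect minus the PRDM16 KO effect. The difference was 2.18 for Ppbp, 1.56 for Tubb1, 1.27 for Gp9, 1.19 for Gp6, 1.06 for Gp5, 1.04 for Mmrn1 and 1.01 for Itga2b on the log2 scale. It was 0.97 for the joined locus of Gp1bb, 0.93 for Nbeal2, 0.70 for Pf4, 0.63 for Clec1b and 0.52 for Itgb3. Kit and Ptprc had the opposite sign, at -0.58 and -0.75. For Ppbp, Gp1bb, Clec1b and Nbeal2 the limma call was a fall in the PRDM16 KO with none in the PR domain KO. Clec1b stood at 0.24 ± 0.11 and Nbeal2 at 0.36 ± 0.14 in the PR domain KO, so a missing call does not mean no change. For Tubb1, Gp9, Gp5, Mmrn1 and Pf4 it was a rise in the PR domain KO with none in the PRDM16 KO. Groups of 2 libraries are too small for a search for a library far from the others.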

How the results depend on the processing

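Counts of members called kept within 1.5 times of the reported ones under the other scalings, pseudocounts and edgeR, with the exceptions given here, and the cause was not tested. On log2(FPKM + 1) the PRDM16 KO had 5 members higher and 2 lower, the PR domain KO 1 lower and the difference of the effects 2 higher and 0 lower. Over all loci FPKM values gave 2225 calls in place of 6502 in the PRDM16 KO, 572 in place of 3190 in the PR domain KO, 186 in place of 2728 for the difference and 1712 in place of 5481 between the WT sets. The DESeq2 Wald test gave 3983, 1797, 1179 and 3388 in that order, and no filter gave 1642 for the difference. Without members at loci that carry another gene's name, an alternative chosen after seeing the data, the PRDM16 KO had 5 lower. The 1 member called lower between the WT sets, Myb, became 0 under TMM scaling, a pseudocount of 0.5, no filter, a filter of 50, FPKM values, DESeq2 and the replicate block.

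The regulator median in the PRDM16 KO was -0.18 under TMM scaling, -0.13 with no filter and with a filter of 50, -0.17 with limma-voom, -0.33 without joined loci and 0.16 on FPKM values. In the PR domain KO it was 0.21 on FPKM values and -0.074 with DESeq2. The platelet median in the PR domain KO was 0.60 on FPKM values, and in the PRDM16 KO it was 0.12 without joined loci. On FPKM values Itga2b stood at -0.058 and Nbeal2 at 0.26 in the PRDM16 KO, and the difference for Nbeal2 at -0.24.

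Leaving out each library in turn gave 7 to 9 members higher and 5 to 8 lower in the PRDM16 KO, 14 to 16 higher in the PR domain KO, 10 to 13 higher and 2 to 3 lower for the difference, and 12 to 14 higher and 0 to 1 lower between the WT sets. The platelet median ranged over 0.62 to 0.81 in the PR domain KO and -0.11 to 0.080 in the PRDM16 KO. The regulator median ranged over -0.15 to 0.12 in the PR domain KO and -0.25 to -0.095 in the PRDM16 KO. Where 1 library of a group remained, it was assumed to vary like the other groups.

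Of all calls over all loci in the PR domain KO, 44.2% were higher under the authors' scaling and 54.4% under DESeq2 scaling, and for the difference 47.6% and, under total-fragment scaling, 63.0%. Replicate numbers paired no libraries in these data (correlation of deviations -0.03 in the PRDM16 set and 0.03 in the PR domain set). With the replicate block, Itgb3 and Treml1 lost their call in the PRDM16 KO (8 members higher in place of 10), and Myb and Meis1 theirs between the WT sets (12 higher and 0 lower). Between the WT sets the block fit compared fitted levels at replicate 1, not group means. The loss for Myb and Meis1 is therefore no test of pairing. The block changed no other call of a member. With 2 libraries a group and 13 to 33 fragments for Myb, small effects on low members were not detectable.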
